A study of Mus musculus with 2 samples.

Results

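The nuclear genes for the respiratory chain and the ATP synthase were described in RNA sequencing of mouse telencephalon at embryonic day 12, comparing a conditional knockout of H2AZ (H2AZ cKO) with a floxed control (H2AZ fl/fl). Members were the rows of the deposited count table whose identifier carries a symbol starting with Ndufa, Ndufb, Ndufc, Ndufs or Ndufv, with Sdh followed by a, b, c or d, with Uqcr, with Cox4 to Cox8 or with Atp5, leaving out names with -ps. The rule used names only and found 93 of 19202 genes. They are 38 complex I, 4 complex II, 8 complex III, 14 complex IV and 17 ATP synthase genes, with 8 Ndufaf and 4 Sdhaf assembly factors. Both groups are of the C57BL/6 background. The control carries H2AZ alleles flanked by loxP sites, and the labels name neither the Cre line that deletes them in the cKO nor the number or sex of the embryos. The tissue label reads telencephalic tissue, whereas the extraction protocol names cerebral cortex. The design text speaks of sequencing in triplicate, but the table holds 1 count column per genotype, called a library here, so no difference has a replicate check and no genotype test or p-value was computed.

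The respiratory chain sits in the inner mitochondrial membrane. Complex I takes electrons from NADH and complex II from succinate, complex III passes them to cytochrome c, and complex IV hands them to oxygen. Complexes I, III and IV pump protons, and the ATP synthase lets the protons flow back to make ATP. Most subunits are encoded in the nucleus, a few in mitochondrial DNA, and assembly factors help to build complexes without staying in them. The histone variant H2A.Z is found at many promoters. Neural progenitors of the early telencephalon draw on glycolysis as well as respiration, and differentiating neurons come to rely more on respiration.

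Total counts were 8839840 for the cKO library and 8891198 for that of the control. H2afz, the targeted gene, had 1664 counts against 2605, a ratio of 0.661 (0.621 to 0.703). Ratios are cKO over control after TMM scaling of the libraries, and brackets give the exact 95% binomial (Clopper-Pearson) interval of the counts, which covers counting error only. The libraries also differed in other ways that move with every result here. Xist had 6384 counts in the cKO and 200 in the control, while 4 Y-linked genes had 0 to 5 counts in the cKO and 190 to 647 in the control. The 9 erythroid markers summed to 6020 against 3283 counts, a ratio of 1.897 (1.82 to 1.98), with none at 0 and all 8 tested ones above 1. The 9 microglia and macrophage markers summed to 412 against 303 counts, with 8 of 9 above 1 and none at 0. The 5 endothelial markers summed to 881 against 955, with none at 0. All 7 telencephalic markers were present, with summed counts of 20020 and 18727, a ratio of 1.106 (1.08 to 1.13). Of these, 6 were above 0 in log2 ratio, led by Dlx1 at 1.26 (1.21 to 1.31) and Dlx2 at 1.21 (1.14 to 1.28). Pax6 was the one below, at 0.972 (0.898 to 1.05). The part of sex, blood, macrophages or the make-up of the telencephalic tissue in the results below was not tested. In bulk tissue fewer cells of a type and less RNA per cell cannot be told apart.

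Nearly all members were a little higher in the H2AZ cKO, and few of them by much. Of the 92 members tested, 81 had a log2 ratio above 0, against 51.0% of the 14586 genes tested, and 11 were below 0, against 49.0% of genes. Scaling by total count gave 71 members above 0 and 43.6% of genes. A gene was tested when its higher library reached 1 CPM (counts scaled by library size), and Cox7a1, with 2 counts in the cKO and 6 in the control, did not. The median log2 ratio on log2(CPM + 1) was 0.13 over the members and 0.01 over all tested genes. At least 1.2-fold higher were 20 members, against 11.4% of all tested genes, and 1 member, Ndufv3, was at least 1.2-fold lower, against 13.4%. No member reached 1.5-fold on this scale in either direction, where the shares of all genes were 1.92% higher and 3.03% lower. The counting interval lay wholly above 1 for 43 members (12.6% of all tested genes) and wholly below 1 for Ndufv3 alone (11.2%). Whether an interval excludes 1 depends on the counts, and members had a median level of 81.1 CPM against 28.5 CPM for all tested genes. The shares of all genes given beside intervals, here and below, are therefore not at like counts. Intervals here and below are given under TMM scaling only. Scaling by total count took the median log2 ratio to 0.09 over the members and -0.03 over all genes. Intervals that begin near 1 may therefore include it under that scaling. Summed over members, the counts were 90231 in the cKO and 84617 in the control, which is 1.02% and 0.952% of each library and a ratio of 1.103 (1.09 to 1.11).

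The lean was not the same in every complex. The median log2 ratio was 0.20 for complex I, 0.12 for the ATP synthase and 0.13 for complex IV, but 0.06 for complex III and -0.01 for complex II. Of the 20 genes at least 1.2-fold higher, 12 belonged to complex I, 3 to the ATP synthase, 3 to the Ndufaf factors, and 1 each to complexes III and IV. Scaling by total count left 13 members at least 1.2-fold higher, as did DESeq2 size factors, against 9.08% and 9.92% of all genes. Removing the trend that all genes showed with transcript length, GC content and level left 4 of 92, against 11.2% of all genes, so a smaller share than in the background. These were Ndufa4l2, Ndufb4, Atp5s and Ndufaf6. It also turned the medians of complexes III and IV to -0.06 and -0.02.

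**Figure D1:**
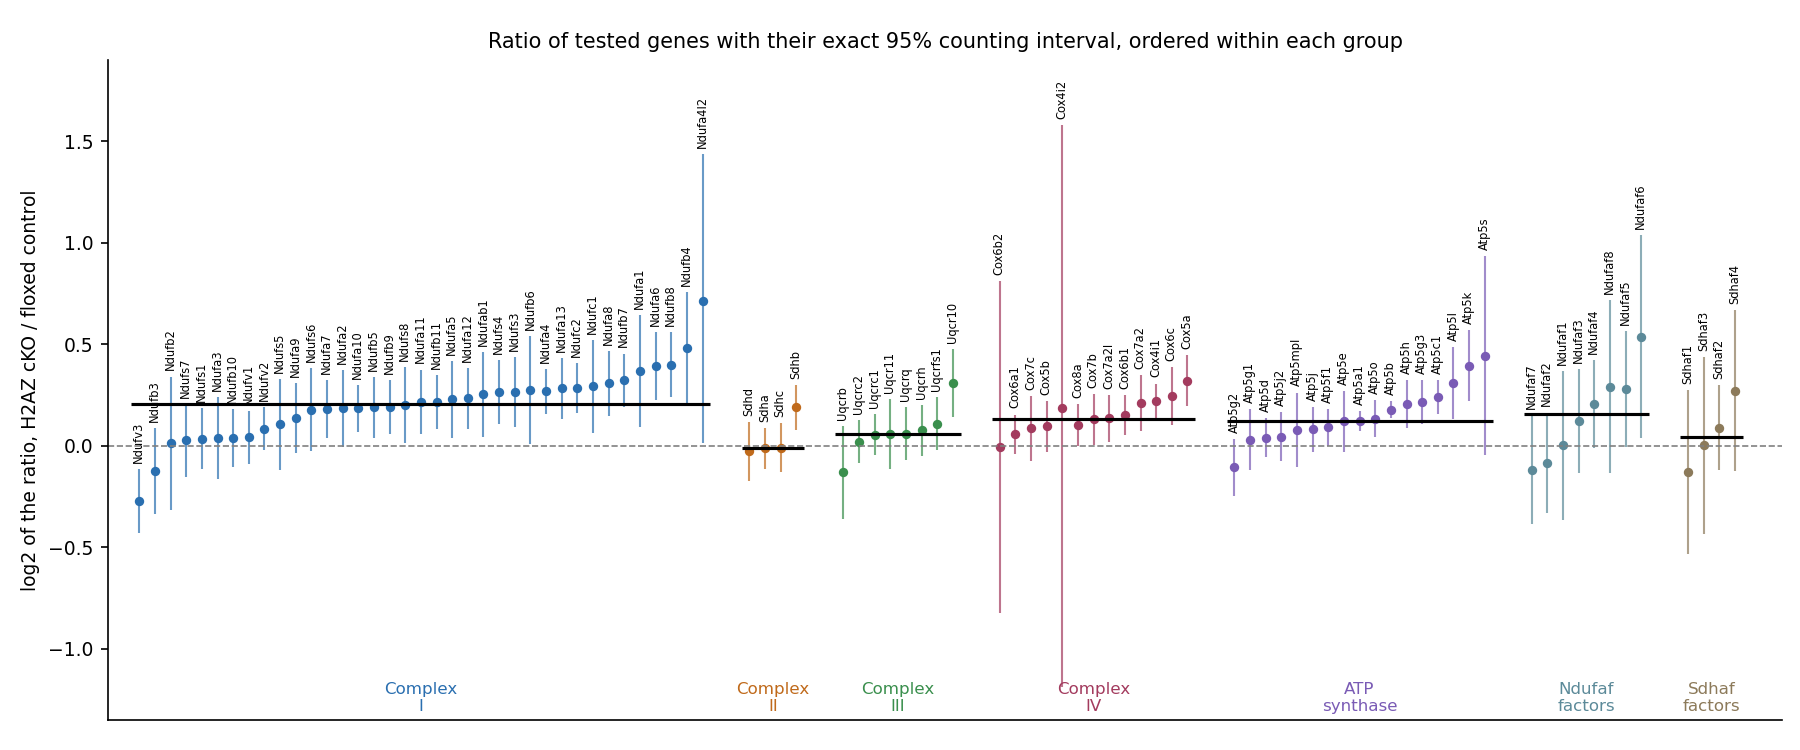
Log2 of the ratio of tested genes (y axis, H2AZ cKO over floxed control, log2 units), with genes grouped by complex along the x axis and ordered by their log2(CPM + 1) ratio. Points are ratios of scaled counts, vertical lines are exact 95% counting intervals, and thick bars are the group medians on log2(CPM + 1), such as 0.20 for complex I and -0.01 for complex II; most points lie slightly above 0, and Ndufv3 has the only interval wholly below it.

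Promoter sequences of members with high and low ratios were also described. Respiratory genes are textbook targets of the transcription factors NRF1, GABP and YY1. Their letters, taken as GCGCATGCG for NRF1, CCGGAAG for GABP and ATGGCGGC for YY1, were searched on both strands in 83 RefSeq windows (GRCm38.p6, from 250 bases before to 50 after a start) that matched 78 of the 93 members. A match is a description of the letters and not a binding site. NRF1 letters were in 12.05% of member windows, against 3.47% of the windows of tested coding genes and 1.75% of all windows. For GABP the shares were 25.3%, 16.4% and 8.86%, and for YY1 10.8%, 4.49% and 2.24%. Any of the motifs was in 41.0% of member windows and 22.4% of those of tested coding genes, at a median GC content of 58.7% and 61.0%. The 33 tested members with any of these letters had a median log2 ratio of 0.17 and the 44 without 0.13, but with the trend on length, GC content and level removed the medians were 0.05 and 0.06. For GABP letters alone the order was the other way, 0.12 in the 21 members with them and 0.18 in the 56 without. Letters of NRF1 were found both in Atp5k, at 1.31 (1.16 to 1.48) among the highest ATP synthase genes, and in Atp5g2, the lowest at 0.929 (0.844 to 1.02).

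The windows of 5 members are printed here from 250 bases before to 30 after the start, 5′ to 3′ along the gene, with motif letters in capitals. Atp5k (chr5:108434370-108434649, minus strand) holds an NRF1 palindrome matched on both strands from base -50, with the start as base 0, and GABP letters on the opposite strand from base 12. Atp5g2 (chr15:102671018-102671297, minus strand) holds the NRF1 palindrome from base -42. Ndufb7 (chr8:83566508-83566787, plus strand) holds GABP letters from base -20, and Ndufb5 (chr3:32736813-32737092, plus strand) holds YY1 letters from base 19. Ndufv3 (chr17:31519865-31520144, plus strand), the one member at least 1.2-fold lower, holds none of these letters. It is among 44 such tested members, of which 38 had a log2 ratio above 0.
Atp5k: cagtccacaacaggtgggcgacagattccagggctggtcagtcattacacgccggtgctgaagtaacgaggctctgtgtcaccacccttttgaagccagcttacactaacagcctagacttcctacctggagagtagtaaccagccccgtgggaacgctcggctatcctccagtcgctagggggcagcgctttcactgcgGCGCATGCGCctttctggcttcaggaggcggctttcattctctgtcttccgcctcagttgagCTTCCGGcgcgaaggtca
Atp5g2: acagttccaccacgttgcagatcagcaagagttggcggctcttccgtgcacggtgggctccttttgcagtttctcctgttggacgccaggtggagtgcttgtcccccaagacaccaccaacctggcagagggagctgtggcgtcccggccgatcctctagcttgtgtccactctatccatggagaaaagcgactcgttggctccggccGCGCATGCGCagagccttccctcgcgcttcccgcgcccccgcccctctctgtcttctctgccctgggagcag
Ndufb7: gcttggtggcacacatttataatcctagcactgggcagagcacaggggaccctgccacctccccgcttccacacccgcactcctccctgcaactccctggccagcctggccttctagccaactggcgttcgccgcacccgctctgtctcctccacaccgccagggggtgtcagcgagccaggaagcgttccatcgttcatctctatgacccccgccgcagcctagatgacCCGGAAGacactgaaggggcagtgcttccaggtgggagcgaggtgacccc
Ndufb5: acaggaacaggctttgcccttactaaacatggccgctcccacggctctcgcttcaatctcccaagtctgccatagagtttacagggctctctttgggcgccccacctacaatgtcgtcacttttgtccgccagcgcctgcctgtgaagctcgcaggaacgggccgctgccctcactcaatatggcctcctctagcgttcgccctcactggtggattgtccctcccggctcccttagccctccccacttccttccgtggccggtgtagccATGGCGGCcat
Ndufv3: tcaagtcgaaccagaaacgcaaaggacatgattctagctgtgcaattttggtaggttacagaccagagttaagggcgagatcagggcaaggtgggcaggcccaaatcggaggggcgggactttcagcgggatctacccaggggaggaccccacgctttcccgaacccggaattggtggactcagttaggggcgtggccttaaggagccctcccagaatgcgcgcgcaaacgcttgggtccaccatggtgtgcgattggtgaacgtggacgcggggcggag

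Complex I, the NADH dehydrogenase, had the highest median of the complexes. Of its 38 genes, 36 were above 0 (30 under scaling by total count), 24 had a counting interval above 1, and the summed counts were 26107 in the cKO and 23894 in the control, a ratio of 1.13 (1.11 to 1.15). All 15 Ndufa genes were above 0 (median log2 ratio 0.23; 14 under scaling by total count), and both Ndufc genes were (0.28). So were 9 of 10 Ndufb genes (0.20; 7 under scaling by total count) and all 8 Ndufs genes (0.14; 5 under scaling by total count), while the 3 Ndufv genes had a median of 0.04. With the trend on length, GC content and level removed, 4 of 8 Ndufs genes (median 0.02) and 0 of 3 Ndufv genes (-0.04) were above 0, against 14 of 15 Ndufa and 8 of 10 Ndufb genes. Of all genes, 51.0% were above 0 with that trend removed. The highest ratio was that of Ndufa4l2, a hypoxia-induced relative of Ndufa4, with only 46 counts against 29 and a ratio of 1.64 (1.01 to 2.71). Next came accessory subunits of the membrane arm. Ndufb4 had 259 counts in the cKO and 192 in the control, a ratio of 1.40 (1.15 to 1.69). Ndufb8 had 730 against 573, a ratio of 1.32 (1.18 to 1.47). At these counts the size of each difference is only loosely fixed.

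The other complex I genes at least 1.2-fold higher were named after their values were seen. Ndufa6 had 679 counts against 535, a ratio of 1.31 (1.17 to 1.47). Ndufa1, an X-linked subunit, had 248 against 199 and a ratio of 1.29 (1.07 to 1.56). Ndufb7 had 1037 against 858 and a ratio of 1.25 (1.14 to 1.37). Ndufa8, Ndufc1, Ndufc2, Ndufa13, Ndufb6 and Ndufa4 had ratios of 1.205 to 1.24, each with a counting interval above 1. Ndufa4 had 1438 counts against 1235, and its protein is now assigned to complex IV despite its name. The 1.2-fold limit passes through a close series, since Ndufb6 lay just inside it at a log2 ratio of 0.26344 and Ndufs3 and Ndufs4 just outside at 0.26018 and 0.26012. The 16 complex I genes named neither here nor among the core and the lowest subunits had ratios from 1.03 (Ndufa3 and Ndufb10) to 1.2005 (Ndufs4).

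Core subunits, most of which carry the flavin or iron-sulfur clusters, stood closer to 1 than the accessory ones, a split made after the values were seen. The 6 nuclear core genes described here had a median log2 ratio of 0.06 and the 29 accessory genes, without Ndufa4 and Ndufa4l2, one of 0.22. Ndufv1, which binds NADH and the flavin, had 941 counts against 946 and a ratio of 1.03 (0.939 to 1.13). Its partner Ndufv2 had 1501 against 1464, a ratio of 1.06 (0.986 to 1.14). Ndufs1, the largest subunit with several iron-sulfur clusters, had 719 against 726, a ratio of 1.02 (0.923 to 1.14). None of these 3 intervals excludes 1. Ndufs7, which holds the last cluster before ubiquinone, had 510 against 518 counts and a ratio of 1.02 (0.900 to 1.15). Ndufs3 and Ndufs8 were the ones of these 6 with an interval above 1, at 606 against 522 counts (1.201, 1.07 to 1.35) and 504 against 454 (1.15, 1.01 to 1.31). These core genes also have longer transcripts, with a median of 1353.5 bases against 763 for the accessory genes. Once the trend on length, GC and level was taken out, 2 of these 6 core and 24 of 29 accessory genes stayed above 0. Ratios of Ndufs1 and Ndufs7 turn just below 1 under scaling by total count.

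Ndufv3 ran against the rest of complex I. This small accessory subunit of the NADH-oxidising part (chr17:31520115-31531326) had 596 counts in the cKO and 744 in the control, a ratio of 0.829 (0.743 to 0.924). Its level was 68.4 CPM against 82.5 CPM, and with the trend removed its log2 ratio was -0.34. Its head-to-head neighbour Wdr4, whose start lies 135 bases away, had 353 against 411 counts, a ratio of 0.889 (0.769 to 1.03). Ndufb3, a membrane arm subunit, was the only other complex I gene below 1, with 353 against 398 counts and a ratio of 0.918 (0.793 to 1.06). Ndufb2, also of the membrane arm, was level, with 154 against 158 counts and a ratio of 1.01 (0.802 to 1.27) that falls just below 1 under total-count or DESeq2 scaling.

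Complex II, succinate dehydrogenase, links the chain to the tricarboxylic acid cycle and has no subunit in mitochondrial DNA. It showed no common lean: 1 of its 4 genes was above 0 and the summed counts, 4896 and 4920, gave a ratio of 1.03 (0.989 to 1.07). Sdhb, the iron-sulfur subunit, had 1428 counts in the cKO and 1296 in the control, a ratio of 1.14 (1.06 to 1.23). Sdha, the flavoprotein, had 1593 against 1662 and a ratio of 0.992 (0.925 to 1.06). The membrane anchors lay beside it, Sdhc with 1123 against 1169 counts at 0.994 (0.915 to 1.08) and Sdhd with 752 against 793 at 0.981 (0.887 to 1.09). Of the 4, Sdhb has the one interval that excludes 1. The median transcript length of these 4 genes was 2065.5 bases.

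Complex III, the cytochrome bc1 complex, had 7 of 8 genes above 0 (6 under the other scalings), most of them by little, and 2 of 8 with the trend removed (median log2 ratio -0.06). Summed counts were 7585 against 7470, a ratio of 1.05 (1.02 to 1.08). Uqcr10, a small subunit, had 646 counts in the cKO and 539 in the control and a ratio of 1.24 (1.104 to 1.39), the only interval in this complex wholly above 1. Uqcrfs1, the Rieske iron-sulfur protein that takes electrons from ubiquinol, had 967 against 927 and a ratio of 1.08 (0.985 to 1.18). The hinge protein Uqcrh had 1075 against 1055, a ratio of 1.05 (0.967 to 1.15). Both core proteins were close to level, Uqcrc1 with 1574 against 1568 counts at 1.04 (0.968 to 1.11) and Uqcrc2 with 1497 against 1526 at 1.01 (0.944 to 1.09). Uqcrc2 turns just below 1 under total-count or DESeq2 scaling. Uqcrb, a small subunit near the ubiquinone site, was lowest, with 301 against 341 counts and a ratio of 0.913 (0.779 to 1.07). The remaining small subunits Uqcr11 and Uqcrq both had a ratio of 1.04.

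In complex IV, cytochrome c oxidase, 12 of 13 tested genes were above 0 (6 of 13 with the trend removed) and 8 had a counting interval above 1. The nuclear subunits surround a catalytic centre that mitochondrial DNA encodes. Cox5a had 1133 counts in the cKO and 939 in the control, a ratio of 1.25 (1.14 to 1.36), and was the one gene of this complex at least 1.2-fold higher. Cox6c had 881 against 769, a ratio of 1.19 (1.07 to 1.31). Cox4i1, the largest nuclear subunit, had 2202 against 1958, a ratio of 1.16 (1.09 to 1.24). The other end of the range was level rather than low. Cox6a1 had 1762 against 1751 counts and a ratio of 1.04 (0.974 to 1.11), and Cox7c had 657 against 640 and 1.06 (0.951 to 1.19). Cox5b, the zinc-binding subunit, had 1043 against 1010 and a ratio of 1.07 (0.979 to 1.17). Between them, Cox6b1, Cox7a2, Cox7a2l, Cox7b and Cox8a had ratios of 1.07 (Cox8a) to 1.16 (Cox7a2). Each of these genes had an interval above 1 under TMM scaling, that of Cox8a only from 1.0003. X-linked Cox7b, at 1082 against 1022 counts, was one of these at 1.095 (1.005 to 1.19).

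Tissue-restricted isoforms of complex IV stayed a small share in both libraries. Cox4i2, the lung and hypoxia form of Cox4, had 11 of the 2213 counts of both forms in the cKO and 10 of 1968 in the control, shares of 0.497% (0.248 to 0.888) and 0.508% (0.244 to 0.932). Cox6b2, the testis form, had 27 of 1755 and 28 of 1637 counts, 1.54% (1.02 to 2.23) and 1.71% (1.14 to 2.46). Cox7a1, the heart and muscle form, had 2 of 917 and 6 of 825 counts of the Cox7a1 and Cox7a2 pair. Each pair of intervals overlaps, so a shift between isoforms was not detectable at these depths. No row named Cox6a2, Cox8b or Cox8c was analysed here.

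**Figure D2:**
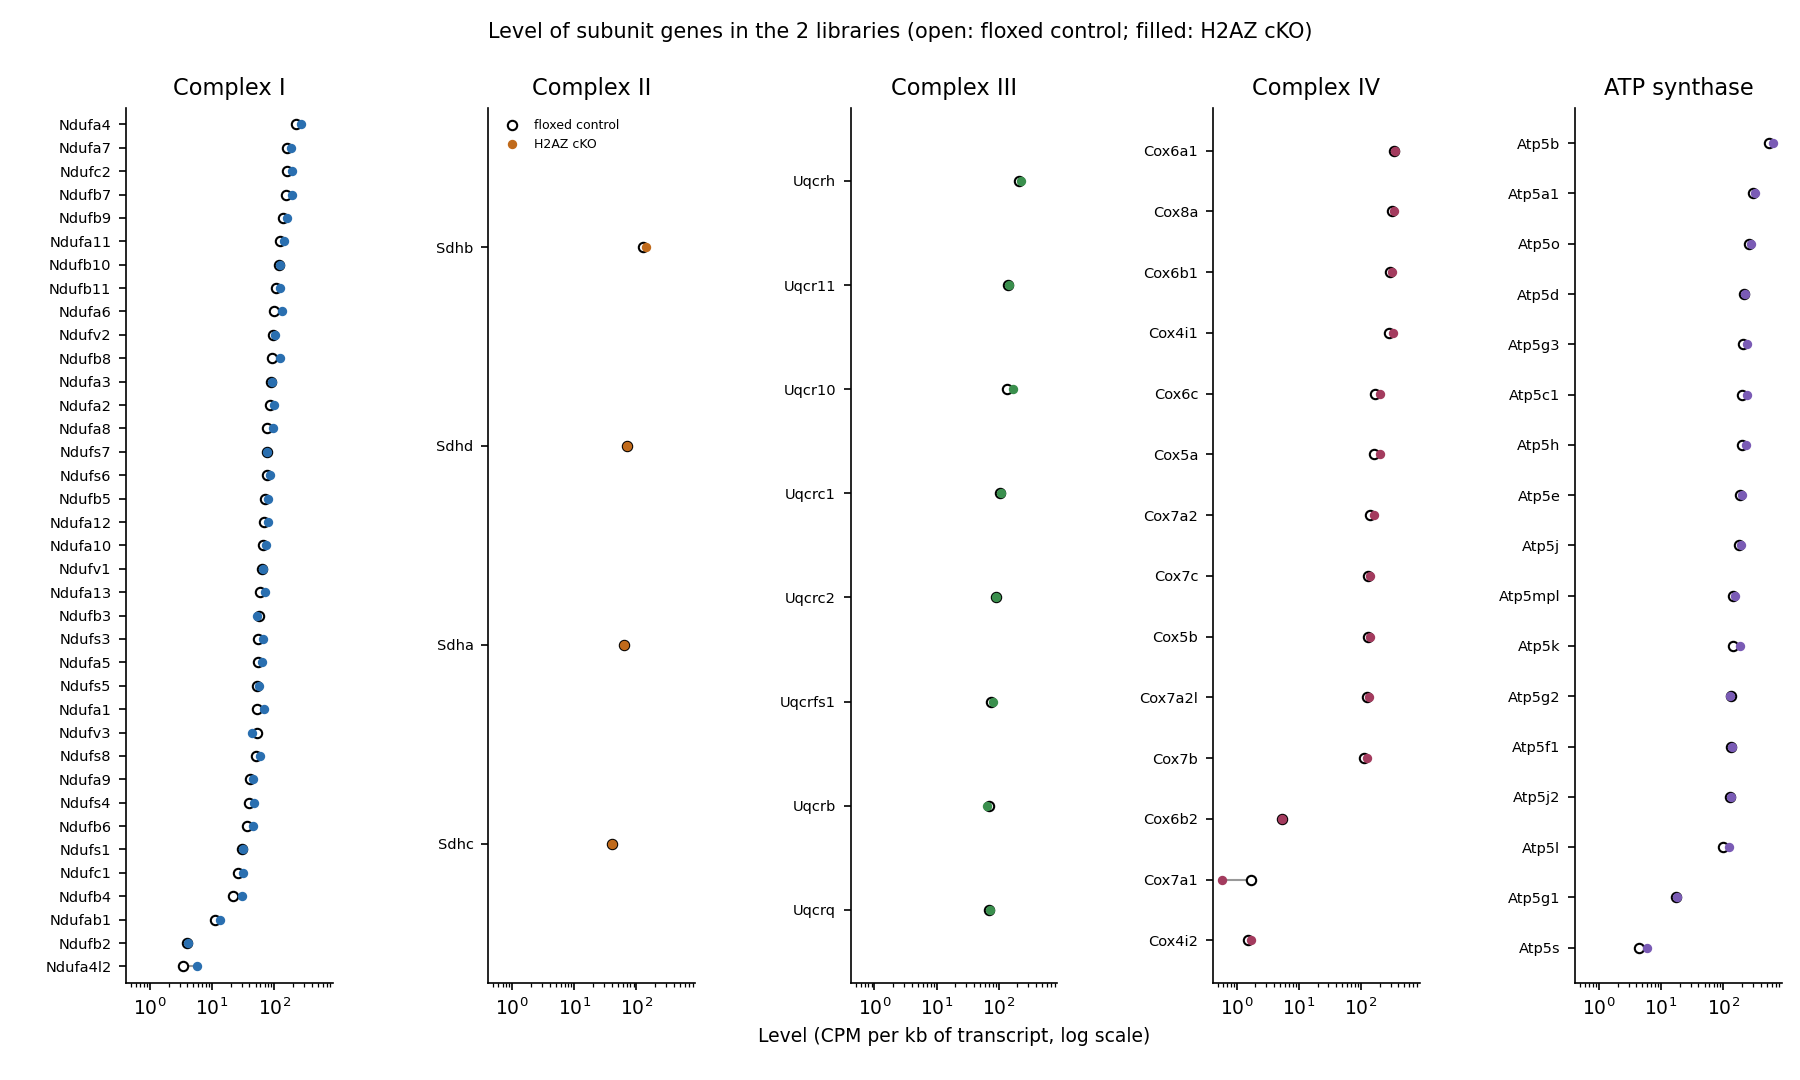
Level of subunit genes in CPM per kilobase of transcript (x axis, log scale), 1 panel per complex, genes ordered by level in the control; open circles are the floxed control and filled circles the H2AZ cKO, 1 library each. The pairs of points nearly coincide for most genes, from Atp5b at 551 and 623 down to Cox4i2, the lowest in the control, at 1.51 and 1.72. Cox7a1, which was not tested, stood apart at 1.69 in the control and 0.584 in the cKO. The spread between genes is far larger than that between libraries.

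Levels per transcript length differ much more between subunits than between genotypes, as the plot of levels by complex shows. Atp5b, the catalytic beta subunit of the ATP synthase, was highest at 623 CPM per kb in the cKO and 551 in the control. In complex IV Cox6a1, Cox8a, Cox6b1 and Cox4i1 lay together, between 321 and 354 CPM per kb in the cKO and between 284 and 340 in the control. The most abundant complex I gene by this scale, Ndufa4, had 270 and 225 CPM per kb, that of complex III, Uqcrh, 225 and 214, and that of complex II, Sdhb, 143 and 126. Most complex I genes sat lower, such as Ndufs1 at 31.0 and Ndufv2 at 101 CPM per kb in the cKO. A few genes have long principal transcripts in the annotation, such as 4371 bases for Ndufb2, 4715 for Atp5g1 and 3479 for Ndufab1, which lowers their level per length. Their levels before that division also differ, with Ndufb2 at 17.7 CPM and Ndufab1 at 46.1 CPM in the cKO.

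The ATP synthase genes took the largest share of members' counts, 0.396% of the cKO library and 0.368% of the control. Of 17 genes 16 were above 0 (15 under scaling by total count), 8 had an interval above 1, and the summed ratio was 1.105 (1.09 to 1.12). In the F1 head, which makes ATP, all 5 genes had a ratio above 1, 3 of them with an interval that excludes 1, and 3 stayed above 0 with the trend removed. Atp5b had 10408 counts in the cKO and 9515 in the control and a ratio of 1.13 (1.1005 to 1.16), the tightest interval among members. Atp5a1, the alpha subunit beside it, had 7012 against 6671, a ratio of 1.09 (1.05 to 1.12). Atp5c1, the rotating gamma shaft, had 2450 against 2146, a ratio of 1.18 (1.11 to 1.25). Atp5d and Atp5e, the small subunits of the shaft, had ratios of 1.03 (0.963 to 1.099) and 1.09 (0.980 to 1.21), and trend-removed log2 ratios of -0.13 and -0.04. The 4 genes of the peripheral stalk, which holds the head still, had a median log2 ratio of 0.11 (-0.02 with the trend removed), and Atp5h with 1261 against 1131 counts led them at 1.15 (1.06 to 1.25).

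The highest ratios of the ATP synthase were those of Atp5s and the small membrane subunits Atp5k and Atp5l, and the lowest that of Atp5g2. Atp5k, the e subunit that helps the enzyme to form dimers, had 612 counts in the cKO and 482 in the control, a ratio of 1.31 (1.16 to 1.48). Atp5l, the g subunit that pairs with it, had 582 against 486, a ratio of 1.24 (1.096 to 1.40). Atp5s, a coupling factor that carries the Atp5 name and is now called Dmac2l, had 84 against 64 and a ratio of 1.36 (0.969 to 1.91), too few counts to exclude 1. Atp5j2 and Atp5mpl, further small subunits, had ratios of 1.03 and 1.06, with intervals that include 1.

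Subunit c, which forms the rotating ring, comes from 3 genes that encode the same mature protein, and their mix differed between the libraries. Atp5g2 had 805 counts in the cKO and 896 in the control, a ratio of 0.929 (0.844 to 1.02), while Atp5g3 had 1514 against 1348, a ratio of 1.16 (1.08 to 1.25). Atp5g1 lay between them with 728 against 738 counts at 1.02 (0.920 to 1.13), a ratio that turns just below 1 under scaling by total count. The share of Atp5g3 in the counts of all 3 was 49.7% (47.9 to 51.5) in the cKO and 45.2% (43.4 to 47.0) in the control. For Atp5g2 it was 26.4% (24.9 to 28.0) against 30.05% (28.4 to 31.7). Neither pair of intervals overlaps, whereas those of Atp5g1, 23.9% (22.4 to 25.4) and 24.7% (23.2 to 26.3), do. These shares do not depend on how the libraries are scaled. The transcripts of Atp5g2 and Atp5g3 differ little in length, 731 and 714 bases, but more in GC content, 56.6% and 50.4%, and in level, 99.4 and 149 CPM in the control. With the trend on all 3 removed their log2 ratios were -0.25 and 0.06. The summed subunit c counts were 3047 and 2982, a ratio of 1.06 (1.005 to 1.11).

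**Figure D3:**
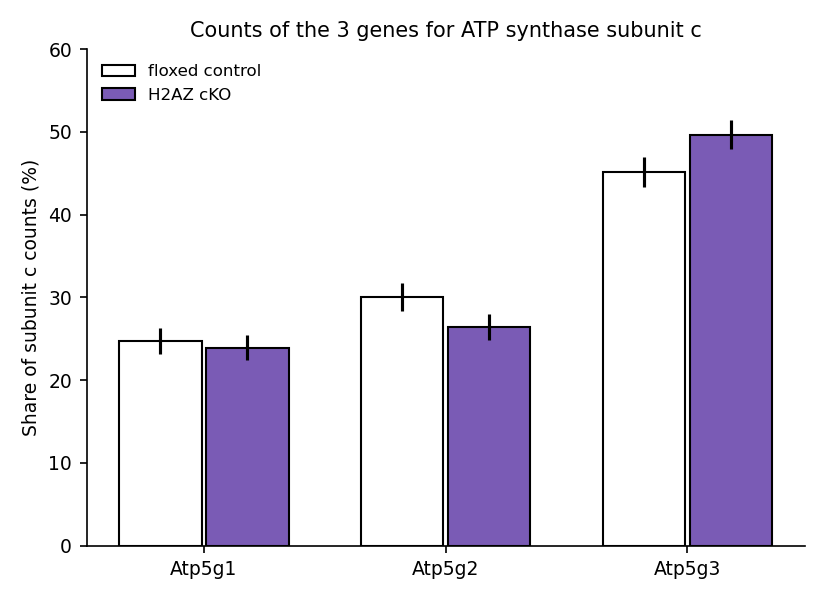
Share of the counts of Atp5g1, Atp5g2 and Atp5g3, the 3 genes for ATP synthase subunit c, held by each gene (y axis, percent, from 0) in the floxed control (open bars, 2982 counts) and the H2AZ cKO (filled bars, 3047 counts), 1 library each. Lines are exact 95% binomial intervals for counting error; Atp5g3 has 49.7% in the cKO and 45.2% in the control, and Atp5g2 has 26.4% and 30.05%.

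Assembly factors were present at lower levels and so with wider intervals. The Ndufaf factors, which build complex I, had 6 of 8 genes above 0 (5 under the other scalings), a median log2 ratio of 0.16 and 1 counting interval above 1. Ndufaf6 had 84 counts in the cKO and 60 in the control and a ratio of 1.45 (1.03 to 2.05). Ndufaf8 had 104 against 88 at 1.22 (0.912 to 1.64), and Ndufaf5 had 225 against 192 at 1.21 (0.996 to 1.48). At the other end were Ndufaf7 with 220 against 247 counts at 0.921 (0.765 to 1.11) and Ndufaf2 with 261 against 286 at 0.944 (0.795 to 1.12). Ndufaf1 was level at 125 against 129 counts and a ratio of 1.0025 (0.778 to 1.29), which turns below 1 under total-count or DESeq2 scaling. Ndufaf3 and Ndufaf4 lay at 1.09 and 1.15, with intervals that include 1. The 4 Sdhaf factors for complex II had ratios of 0.916 (Sdhaf1), 1.06 (Sdhaf2), 1.0012 (Sdhaf3) and 1.21 (Sdhaf4), none with an interval that excludes 1.

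Genes of the same pathway outside the name rule are given for reference, and their difference from the members was not tested. Of 10 assembly factors of complex I with other names, 5 were above 0 (median log2 ratio -0.01; median transcript 1954 bases), none was at least 1.2-fold higher (11.4% of all genes) and 2 were at least 1.2-fold lower (13.4%). These were Acad9, with 272 counts in the cKO and 371 in the control and a ratio of 0.758 (0.646 to 0.889), and Foxred1, with 239 against 309 and 0.8002 (0.673 to 0.9505). Of 27 tested assembly factors of complexes III and IV and the ATP synthase, 15 were above 0 (median log2 ratio 0.01; median transcript 1890 bases), 1 was at least 1.2-fold higher and 3 were at least 1.2-fold lower, shares near or below those of all genes. The one higher was Uqcc2, a complex III factor, with 551 against 439 counts at 1.30 (1.14 to 1.48). The lower ones were the copper chaperone Cox17 (48 against 70 counts, 0.709, 0.481 to 1.04), Lyrm7 (53 against 76, 0.721, 0.498 to 1.04) and Atpaf1 (159 against 204, 0.806, 0.651 to 0.997). Cyc1, the cytochrome c1 subunit of complex III, had 1517 against 1502 counts at 1.04 (0.972 to 1.12), and somatic cytochrome c, Cycs, had 539 against 559 at 0.998 (0.885 to 1.12). The other electron carriers in this list were Etfa and Etfdh, at 1.02 and 1.03, and Etfb, with 35 against 60 counts at 0.603 (0.386 to 0.931).

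Regulators of mitochondrial gene expression did not lean upward as a list, but their median transcript was 3219.5 bases, against 891.5 for the members. Other coding genes of 2500 to 5000 bases, at any level tested, had a median log2 ratio of 0.001 with 50.2% above 0. Of 22 regulators tested, 9 were above 0 and the median log2 ratio was -0.04. Among them 3 were at least 1.2-fold higher (11.4% of all genes) and 2 at least 1.2-fold lower (13.4%). Ppargc1a, the coactivator PGC-1alpha, had 92 counts in the cKO and 64 in the control, a ratio of 1.49 (1.07 to 2.08). Tfb2m, a mitochondrial transcription factor, had 90 against 69 at 1.35 (0.975 to 1.87). Polg2, the accessory subunit of the mitochondrial DNA polymerase, had 36 against 64 at 0.582 (0.376 to 0.889), and Gabpb2, a GABP beta subunit, had 315 against 404 at 0.807 (0.694 to 0.937). Of the factors whose letters were searched in promoters, Nrf1 had 614 against 675 counts (0.941, 0.842 to 1.05) and Yy1 had 682 against 677 (1.04, 0.936 to 1.16). The other GABP genes lay on the opposite side to Gabpb2, Gabpa with 490 against 467 counts (1.09, 0.954 to 1.23) and Gabpb1 with 733 against 657 (1.15, 1.04 to 1.28). Tfam, which packages mitochondrial DNA, had 490 against 525 counts and a ratio of 0.966 (0.852 to 1.09).

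Neighbouring energy pathways were measured on longer genes, with median transcripts of 2525 bases for the tricarboxylic acid cycle, 2786 for glycolysis and 1542 for import, against 891.5 for the members. The 18 tricarboxylic acid cycle genes had a median log2 ratio of 0.03 and the 19 glycolysis genes one of 0.05, and none of either list was 1.2-fold away from 1 on this scale. Among them the largest differences were Mdh2 at 1.18 (1.12 to 1.24), the matrix malate dehydrogenase, and Pfkp at 0.838 (0.731 to 0.961), a phosphofructokinase. A counting interval above 1 was found for 3 of the 18 and 7 of the 19, against 12.6% of all genes. The median levels of these lists were 104 and 189 CPM, against 28.5 CPM for all tested genes. The 22 tested import and outer membrane genes had a median of 0.08, with 16 above 0 and 8 intervals above 1. With the trend removed their median was 0.04, beside 0.05 for the members. One import gene was at least 1.2-fold higher, Timm8b (641 against 545 counts, 1.22, 1.08 to 1.37). Timm8b starts 98 bases from Sdhd, which was at 0.981.

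Of 10 tested rows for subunits encoded in mitochondrial DNA, 9 had a counting interval above 1, and the median log2 ratio was 0.22. Of all genes, at far lower levels, 12.6% had such an interval. Removing the trend on length, GC content and level took that median to 0.0046 with 6 of 10 above 0, or 4 of 10 with the longest transcript as length. That trend was fitted mostly on genes of far lower level, since these rows had a median of 2130 CPM against 28.5 CPM for all genes. Counts summed over all 12 rows were 259728 in the cKO and 230255 in the control, a ratio of 1.17 (1.16 to 1.17), against 1.103 for the nuclear members. The spread among them was wide. Mt-Nd6 had 12112 counts against 8527 (1.47, 1.43 to 1.51) and mt-Nd5 had 18001 against 13267 (1.40, 1.37 to 1.44), whereas mt-Cytb had 63586 against 61621 (1.07, 1.06 to 1.08). Nd5 and Nd6 overlap at their ends on opposite strands of the mitochondrial genome. No source used here says whether the counting used strand, so reads in the mt-Nd6 row may come from either strand. Mt-Nd3, with 116 against 70 counts, was at 1.71 (1.26 to 2.34). That row held only 38.2 CPM per kb in the cKO and 22.3 in the control, against 1132 and 807 for mt-Nd5. Its ratio may therefore not reflect the level of the subunit. Rows for mt-Co2, mt-Co3 and mt-Atp6 held 3 to 20 counts, against 13516 to 63586 for mt-Co1, mt-Atp8 and mt-Cytb, and no level of those subunits was read from them by itself. The mt-Atp6 row is nevertheless among the 10 tested rows above. Those of mt-Co2 and mt-Co3 were not tested and enter only the sum over all 12 rows.

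The lean of the members was shared by other short, abundant genes. Their median transcript was 891.5 bases long, against 2976 for all tested genes. Among other coding genes at a mean of 20 CPM or more, a limit and bins chosen after the values were seen, the median log2 ratio was lower in longer genes. It was 0.15 in the 29 genes up to 500 bases, 0.18 at 500 to 700, 0.15 at 700 to 1000, 0.13 at 1000 to 1500, 0.07 at 1500 to 2500, 0.01 at 2500 to 5000 and -0.09 above 5000 bases. Without the level limit the first 4 of these medians were 0.10, 0.13, 0.13 and 0.1004. Members at 20 CPM or more had medians of 0.21 (6 genes), 0.19 (24), 0.13 (17), 0.19 (14), 0.06 (13) and 0.03 (7) in the same bins, and no member was above 5000 bases. The share above 0 among the other coding genes was 84.8% at 500 to 700 bases and 26.9% above 5000. Cytosolic ribosomal protein genes, with a median transcript of 835 bases, had a median log2 ratio of 0.22 and 78 of 81 above 0, and mitochondrial ribosomal protein genes, at 1316 bases, had 0.11 and 61 of 77.

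**Figure D4:**
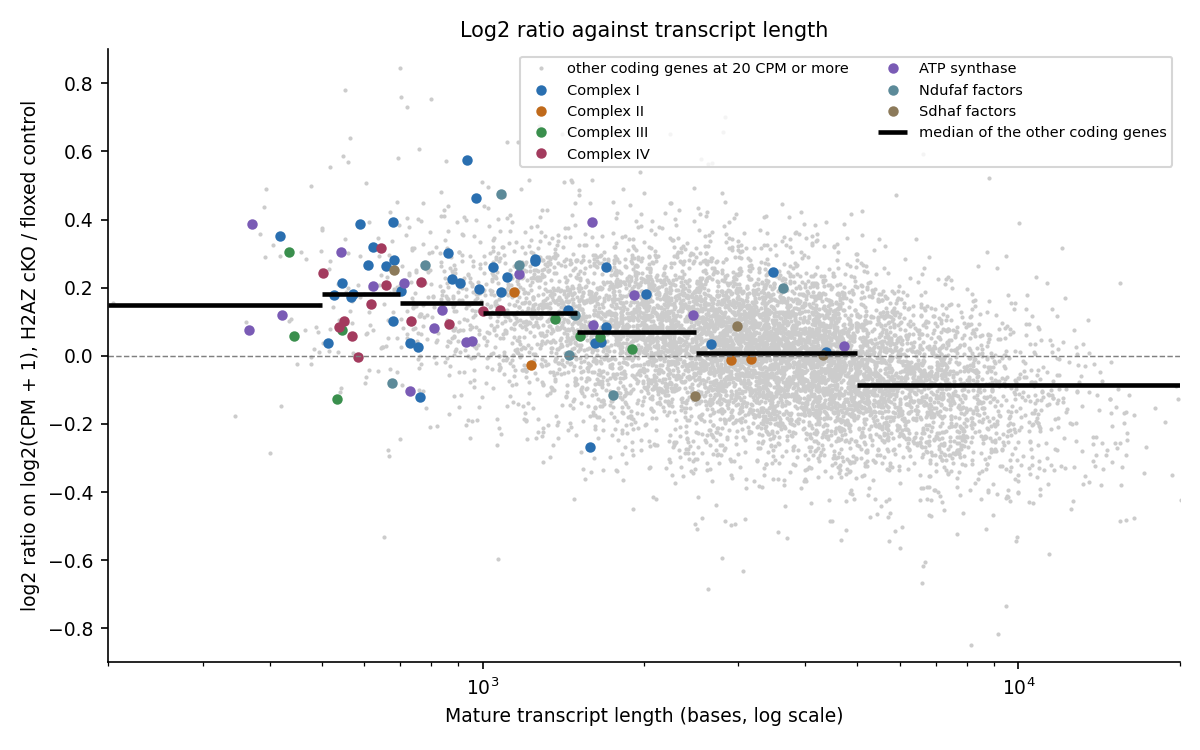
Log2 ratio on log2(CPM + 1), H2AZ cKO over floxed control (y axis), against mature transcript length in bases (x axis, log scale) for the members (coloured by complex) and other coding genes with a mean of 20 CPM or more (grey); black bars are medians of the other coding genes in each length bin. The bars go from 0.18 at 500 to 700 bases to -0.09 above 5000 bases, and most members lie among the grey points of their length; points outside the axis ranges are not drawn.

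With the trend on length, GC content and level of all genes removed, 54 of 92 members were above 0, against 51.0% of all genes. Their median log2 ratio was 0.05, against 0.004 over all genes. Complex I kept the highest median among the complexes, 0.09 with 28 of 38 above 0, and the ATP synthase had 0.02 with 9 of 17. Complex III had 2 of 8 above 0 and complex IV 6 of 13. Ndufaf factors, whose transcripts are longer at a median of 1308.5 bases, kept 0.13. Of cytosolic ribosomal protein genes, 59 of 81 stayed above 0 with a median of 0.07. Length, GC content and level were removed together, so their parts in the lean of the members were not tested apart.

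Members also share a position next to other genes. Head-to-head coding partners, with starts on opposite strands within 500 bases and both genes tested, were found for 28 of the 92 members (30.4%) and for 12.03% of the 13158 tested coding genes, a comparison chosen after the values were seen. The 28 members with a partner had a median log2 ratio of 0.19 and their partners 0.07, with 17 of 28 partners above 0. The partners had longer transcripts, with a median of 2089 bases. Other coding genes of 1500 to 2500 bases, at any level tested, had a median of 0.06 with 61.9% above 0. The partners themselves ranged from 392 bases (Rps28) to 9559 bases (Ccdc127), and a comparison matched for length was not made. Ndufa7, for example, shares its start region with the ribosomal protein gene Rps28, 10 bases away, and they had ratios of 1.13 (1.03 to 1.25) and 1.22 (1.15 to 1.30). Ndufs1 overlaps Eef1b2 at its start by a few bases, and Eef1b2 had 3086 against 2860 counts and a ratio of 1.12 (1.06 to 1.18) where Ndufs1 had 1.02. Exons of 23 members overlap those of a coding gene of the table on the other strand, such as Cox6c with Vps13b, Atp5j with Gabpa, Cox4i1 with Emc8, Atp5a1 with Haus1, Ndufb5 with Mrpl47 and Ndufa4l2 with Shmt2. No source used here says whether the counting used strand, so reads of such pairs may not be told apart, and at the 46 counts of Ndufa4l2 this leaves its value uncertain. Pseudogene rows with the same protein match as a member held 26 and 35 counts in all, at most 4.03% of the counts of any member.

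The X-linked members lay on the same side as the autosomal ones. Ndufa1, Ndufb11 (982 against 874 counts, 1.16, 1.06 to 1.27) and Cox7b were all above 1, while the 508 tested X-linked genes had a median log2 ratio of -0.01. Without the X and Y chromosomes the medians of complexes I and IV were 0.19 and 0.12.

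In the authors' deposited table, whose p-values compare the same single columns by a test that no source used here names, none of the 93 members is marked significant, against 0.896% of all genes. The authors' deposited table gives 21 members an adjusted p under 0.05, of which 20 are higher in the cKO, against 9.55% of all genes. Both shares are of all 19202 genes, including those with few counts.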

How the data were processed

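Per the labels' protocols, E12 telencephalic tissue gave Trizol RNA, of which 2 ug went into each Illumina TruSeq RNA library. The submitters' processing notes list Bowtie2 2.2.3, TopHat2 2.0.12, HTSeq 0.6.0 and mm9 without saying what each did. Positions in the deposited table nevertheless fit GRCm38, since 99.99% overlap the same gene in GENCODE M21. The deposited counts are raw reads per Ensembl gene, 1 column per genotype, and no source used here says whether a column pools replicates. The column headed WT, per the file headers, was taken as H2AZ fl/fl because the series has no other control. The deposited CPM values equal the counts times 1 constant per library and served as an alternative scaling. In the authors' table the fold change divides the CPM of the cKO by that of the control, and a further column gives it as log2. What test gave the authors' p-value and its adjusted form is not stated in these sources.

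The libraries, of 8839840 and 8891198 counts, were scaled with TMM factors of 0.986 and 1.01 (edgeR 4.0.16 in R 4.3.3). Python 3.11.15 (numpy 2.4.6, pandas 2.3.3, scipy 1.17.1) computed the ratios and matplotlib 3.10.9 drew the figures. A count of 0 allows up to 0.339 CPM in the cKO and 0.337 CPM in the control, the level of 3 counts, for counting error only. Without molecular identifiers, reads are not independent molecules. The pseudocount of 1 CPM shrinks the log2 ratio of genes with few counts. Counts were also simulated from a Poisson model without replicate variation, which the interval itself assumes. For 14388 unchanged genes the 95% interval then held the true ratio for 95.45% of them. This checks the computation only and not whether the intervals suit these libraries. Identifiers of 19112 genes matched a symbol, and 90 did not.

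Members, gene lists and the 1.2-fold size were chosen with earlier results of these data known. Members named with values are, at 50 or more summed counts, the 3 highest and 3 lowest of complexes I, III and IV, of the ATP synthase and of the Ndufaf factors. To these come all Sdh subunits, catalytic or redox core subunits, isoform sets and X-linked members; others were named after their values were seen. Values of 1 complex I gene are not reported here by themselves or drawn by name; it stays in counts and medians of whole groups, and the core genes were summarised without it. Other lists name up to 4 genes by the largest difference, beside a few chosen after seeing the values.

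Transcript length and GC content come from the principal coding transcript (APPRIS, then CCDS and support level) of GENCODE M21. The longest coding transcript was used at first, and the choice was changed after values were seen because some longest models were atypical, for 18 members. The trend is a least-squares fit, cubic in each of log2 length, GC content and log2 level, over all tested genes. Alternatives were other pseudocounts, floors, fold sizes and scalings, that trend, leaving out the X and Y chromosomes and, chosen after seeing the data, the longest transcript in the trend and Ndufa4 with Ndufa4l2 counted in complex IV. DESeq2 1.42.0 gave size factors only.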

Additional observations from a re-analysis of the deposited data

How the results depend on the processing

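No paired analysis was possible because the table holds 1 column per genotype and the labels give no replicate number. The medians of complexes I and II, of the ATP synthase and of the Ndufaf factors kept their sign under every alternative run, and those of complexes III and IV under all but removal of the trend. Removing the trend on length, GC and level put the complex IV median at -0.015, and with the longest transcript as length in that trend, chosen after seeing the data, complexes III and IV stood at -0.066 and -0.022. Members at least 1.2-fold higher numbered 20, against 13 with scaling by total count, 13 with DESeq2 size factors and 13 with the CPM as deposited, where 9.08%, 9.92% and 9.08% of all genes passed. They numbered 4 with the trend removed and 5 with the longest transcript in it (11.2% of all genes in both), 0 at a size of 1.5-fold (1.92%) and 45 at 1.1-fold (25.3%). Members at least 1.2-fold lower numbered 1, against 0 with a pseudocount of 5 CPM (6.31% of all genes), 2 without a level floor (13.4%), where Cox7a1 joins Ndufv3, 2 with the trend removed (10.9%), 2 with the longest transcript in it (10.8%), and 0 at 1.5-fold (3.03%). Of 53 named members, removal of the trend moved 20 outside their counting interval and changed the sign of 15; scaling by total count moved 1, Atp5b, and changed the sign of 6, and DESeq2 size factors moved 0 and changed the sign of 3. Counting Ndufa4 and Ndufa4l2 with complex IV left medians of 0.19 for complex I and 0.13 for complex IV. Why the trend exists was not tested. Depth limits the members with few counts: Ndufa4l2, Atp5s, Ndufaf6, Cox4i2 and Cox6b2 have intervals too wide to size a difference.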
